A study of Mus musculus with 6 samples.

Results

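The genes described here are p53 targets and regulators of apoptosis, measured in cultured mouse podocytes with and without mechanical stretch. They were chosen by name: of 37 genes on the list, 35 had a probe set that the array's annotation assigns to a single gene symbol, out of 18193 genes tested in all. Trp53, which encodes p53 itself, and the pore-forming effector Bax were not analysed here. Where a gene had several probe sets, the one with the highest mean over all 6 arrays stood for it.

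The cells were SVI, a conditionally immortalized mouse podocyte line, and podocytes are the epithelial cells that cover the capillaries of the kidney's filter. Stretched cells received cyclic biaxial stretch at 0.5 Hz with up to 5% linear strain for 3 d, and unstretched cells of the same line did not, with 3 arrays per group. All cells of both groups had been differentiated in medium with serum. Lines of this kind are commonly immortalized with a temperature-sensitive viral oncoprotein that binds p53, but the sources used here do not say so of SVI, and a cell line also lacks the neighbours that podocytes have in the glomerulus. The series mentions 3 independent batches without saying what they were, so part of the array-to-array spread behind each p-value may be technical.

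p53 is a transcription factor that accumulates after DNA damage and other stress. It switches on genes that halt the cell cycle, repair DNA or start cell death, and it also induces Mdm2, the ubiquitin ligase that marks p53 for destruction. Apoptosis through the mitochondrion is set by the Bcl2 family: BH3-only proteins sense stress, pro-survival members such as Bcl2 and Mcl1 hold them in check, and Bax and Bak1 open the outer mitochondrial membrane. Cytochrome c then assembles Apaf1 and caspase 9 into the apoptosome. Death receptors such as Fas reach the same end through caspase 8.

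As a check of the cells, 8 podocyte markers had a mean log2 level of 6.60 to 6.71 on stretched arrays and 6.61 to 6.83 on unstretched arrays, and 1 of them, Synpo, fell. Such a mean does not show that each marker was expressed. Nphs1, Ptpro and Tcf21 were dim, at the 38.6th, 20.2nd and 16.9th percentile of gene means, and the others lay between the 59.7th (Wt1) and the 95.7th (Cd2ap). Of the tubular markers, Cdh16 and Lrp2 lay at the 96.9th and 94.0th percentile, and the others between the 5.8th and the 41.3rd. Among markers of other cell types, the means of the groups overlapped for endothelial cells and did not for the other 4 types. The mean of 6 macrophage markers was 4.96 to 5.08 in stretched cells and 5.24 to 5.37 in unstretched cells, and 2 of them, Cd68 and Csf1r, fell. Csf1r lay at the 80.9th percentile of gene means, and the other macrophage markers were dim, between the 7.5th (Itgam) and the 41.0th (Cd68). All endothelial markers were dim too, between the 4.3rd (Tek) and the 40.1st (Flt1). The mean of 4 parietal epithelium markers was 7.53 to 7.56 in stretched cells and 7.04 to 7.15 in unstretched cells, and 3 of them rose. The means of 6 mesangial cell and pericyte markers were 6.86 to 6.93 in stretched and 6.75 to 6.85 in unstretched cells, those of 7 tubular markers 6.09 to 6.12 and 5.96 to 5.99, and those of 6 endothelial markers 4.13 to 4.26 and 4.07 to 4.27. Values on this scale have no 0, and the part of these markers in the changes of the p53 and apoptosis genes was not tested. In a culture, fewer cells of a type and less RNA per cell cannot be told apart. The excess of the 3' over the 5' beta-actin control was 1.30 ± 0.05 log2 units in stretched and 1.57 ± 0.03 in unstretched cells (SD, n = 3 each), with a two-sided exact permutation p of 0.1, and 3 arrays against 3 cannot give a smaller one. For Gapdh it was 0.158 ± 0.096 in stretched and 0.245 ± 0.070 in unstretched cells (exact permutation p = 0.4).

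Stretch moved a minority of these genes by small amounts and in both directions. Past the threshold (limma, Benjamini-Hochberg adjusted p under 0.05 over all genes tested), 4 genes rose in stretched cells, 5 fell and 26 did not pass. The 9 calls made up 25.7% of the 35 genes, against 14.7% of all genes tested (7.98% rose and 6.76% fell). The genes that rose were Bmf, Plk2, Pmaip1 and Gadd45g, and those that fell were Sesn1, Zmat3, Aen, Perp and Bcl2; their log2 changes lay between -0.64 and 0.52. The median log2 change of the 35 genes was -0.06, against -0.02 over all genes tested. The median size of the change, regardless of direction, was 0.19 against 0.13 over all genes. At an unadjusted p under 0.05, 14 of the 35 passed, against 27.8% of all genes tested. Without stretched replicate 1, 2 of the 35 genes rose and 3 fell, with 9.13% of all genes called, and without stretched replicate 3, 2 rose and 4 fell, with 9.62% of all genes called.

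**Figure D1:**
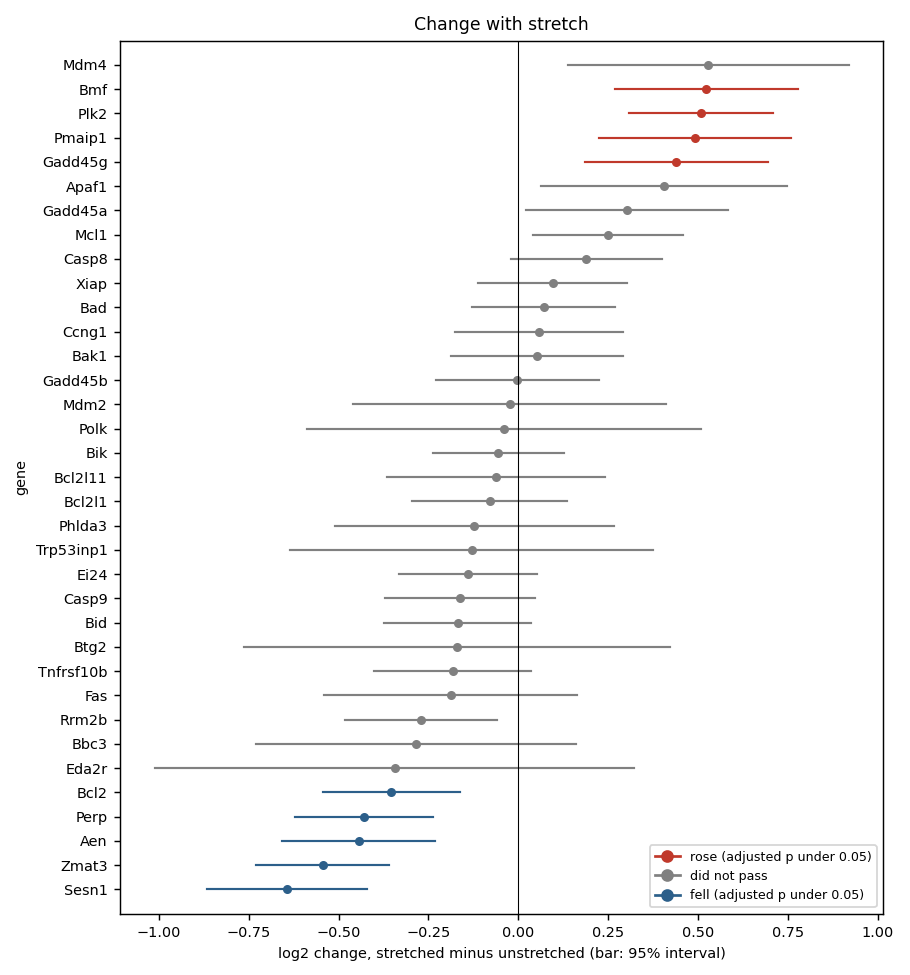
Log2 change, stretched minus unstretched, of the 35 genes in order of size (x axis, log2 units, dot with 95% interval from limma, n = 3 arrays per group). The 4 genes in red rose and the 5 in blue fell past the threshold, and the widest intervals belong to Eda2r, Btg2, Polk and Trp53inp1, which did not pass.

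The groups did not overlap in 14 of the 35 genes, all 3 stretched arrays lying above all 3 unstretched arrays in 6 and below them in 8. Over all genes tested, 32.6% did not overlap (16.0% with stretched above and 16.6% with stretched below). The 9 called genes were among the 14, and the other 5 were Gadd45a and Mcl1, higher in stretched cells, and Rrm2b, Ei24 and Bid, lower in stretched cells. Values below are log2 expression values per array, on which a difference of 1 is a doubling of the signal. Levels of different genes are not set against each other, because probe sets differ in brightness for reasons other than RNA amount.

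**Figure D2:**
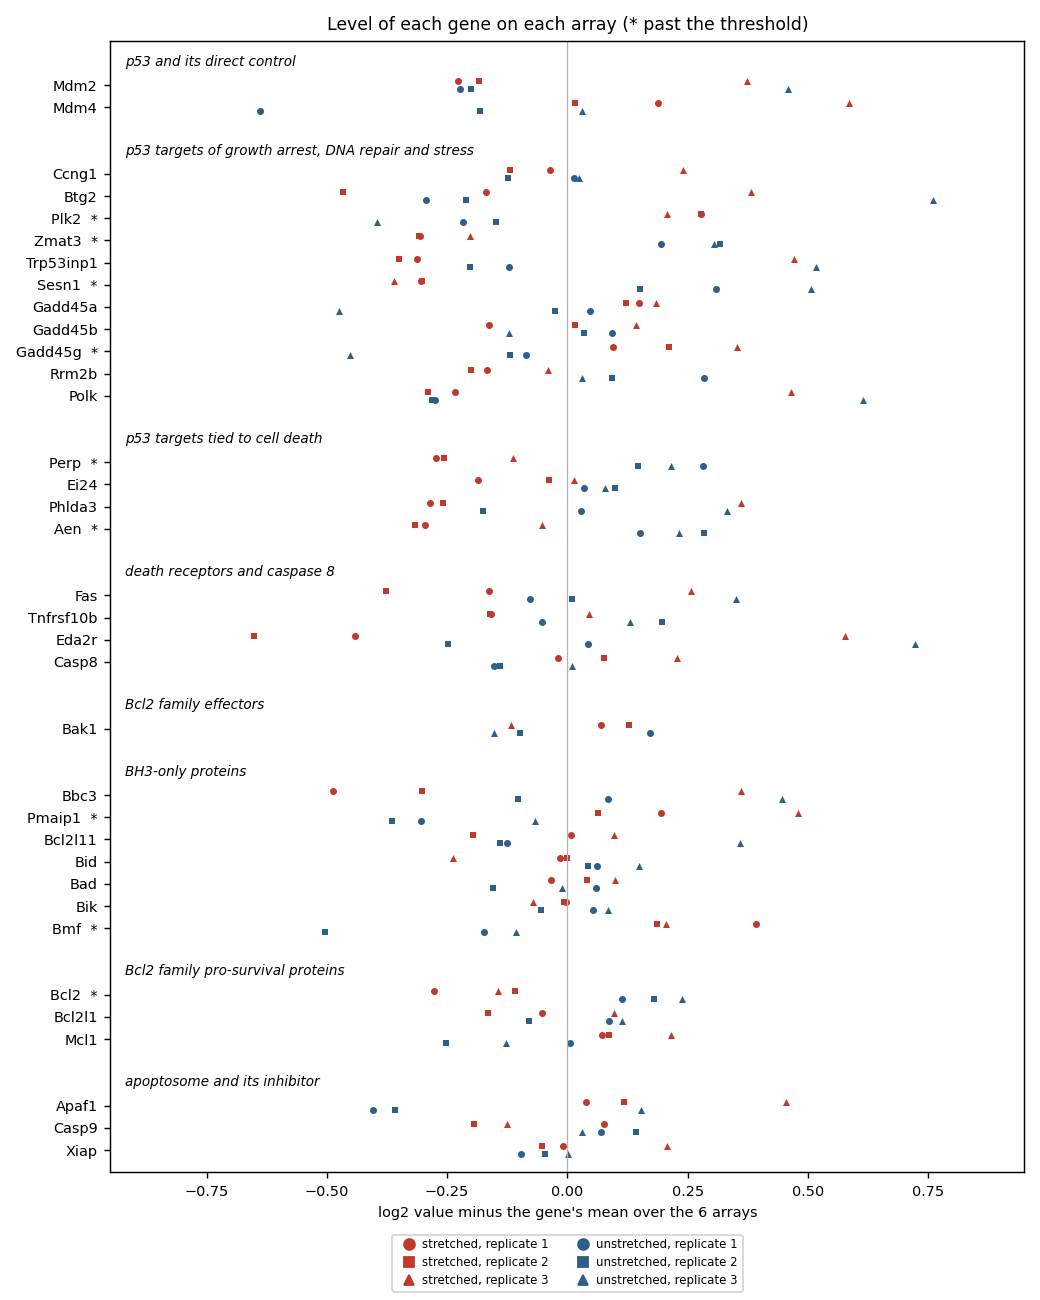
Log2 value on each array minus the gene's mean over all 6 arrays (x axis) for the 35 genes, grouped by role, with stretched arrays in red above unstretched arrays in blue and a marker shape for each replicate number. Asterisks mark the 9 genes past the threshold, and in many of the others the triangle of replicate 3 lies to the right in both groups.

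Of the proteins that control p53 directly, both measured ones did not pass. Mdm2 had 9.43, 9.47 and 10.03 in stretched cells, against 9.43, 9.46 and 10.12 in unstretched cells. The groups covered the same range, and the log2 change was -0.02 (SE 0.20, 95% interval -0.46 to 0.41). Mdm4, a relative of Mdm2 that binds p53 and blocks its activity, had 9.29, 9.12 and 9.69 in stretched cells, against 8.46, 8.92 and 9.13 in unstretched cells. Its highest unstretched array lay just above its lowest stretched array, and its log2 change of 0.53 (SE 0.18) was the largest positive one among the 35 genes but missed the threshold (limma adjusted p = 0.0729). The call changed with 1 array: without unstretched replicate 3 it passed (log2 change 0.68, limma adjusted p = 0.0301).

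Among 11 targets of growth arrest, DNA repair and stress, 2 rose, 2 fell and 7 did not pass. Sesn1 encodes sestrin 1, a restraint on the growth kinase complex mTORC1. It had 8.52, 8.52 and 8.46 in stretched cells, against 9.13, 8.97 and 9.33 in unstretched cells. All stretched arrays lay within 0.06 of each other and well below the unstretched ones, a fall of 0.64 on the log2 scale (log2 change -0.64, SE 0.10, limma adjusted p = 0.00195). With its 4 probe sets averaged, the log2 change was -0.22 and did not pass (limma adjusted p = 0.170). Zmat3, an RNA-binding zinc finger protein that acts in p53-dependent growth control, had 9.30, 9.30 and 9.40 in stretched cells, against 9.80, 9.92 and 9.91 in unstretched cells. Its log2 change was -0.54 (SE 0.08, limma adjusted p = 0.00182). It is read by a single probe set, and it was the only one of the 9 called genes that passed under every one of 17 alternative settings.

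Plk2, a polo-like kinase induced by p53 and by growth signals, had 10.05, 10.05 and 9.98 in stretched cells, against 9.55, 9.62 and 9.38 in unstretched cells. The stretched arrays were close together and all higher, with a log2 change of 0.51 (SE 0.09, limma adjusted p = 0.00407), or 1.42-fold. Averaged with its second, dim probe set, the log2 change was 0.07 and did not pass (limma adjusted p = 0.522). Gadd45g, a stress sensor that activates the p38 and JNK kinase cascades, had 8.92, 9.04 and 9.18 in stretched cells, against 8.74, 8.71 and 8.37 in unstretched cells. Its log2 change of 0.44 (SE 0.11, limma adjusted p = 0.0266) depended on single arrays. The gene no longer passed with stretched replicate 2 (limma adjusted p = 0.0718), stretched replicate 3 (0.108) or unstretched replicate 3 (0.0630) left out, without both arrays numbered 3 (log2 change 0.26, adjusted p = 0.161), and with quantile normalization applied again (0.0630). Its family member Gadd45a had 9.95, 9.93 and 9.99 in stretched cells, against 9.85, 9.78 and 9.33 in unstretched cells, and did not pass (log2 change 0.30, SE 0.13, limma adjusted p = 0.148). The third member, Gadd45b, showed a log2 change of -0.00 with an interval of -0.23 to 0.22.

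The nucleotide and repair enzymes of this role did not pass. Rrm2b, the p53-induced subunit of ribonucleotide reductase that supplies DNA precursors in resting cells, had 7.69, 7.65 and 7.81 in stretched cells, against 8.14, 7.95 and 7.88 in unstretched cells. The groups were separate by a small margin, and the log2 change was -0.27 (SE 0.10, limma adjusted p = 0.0864), which passed once the arrays were quantile normalized again (-0.34, adjusted p = 0.0334). Ccng1, or cyclin G1, one of the classical p53 targets, had a log2 change of 0.06 with an interval of -0.18 to 0.29. The remaining 3, the antiproliferative gene Btg2, the autophagy and stress factor Trp53inp1 and the translesion polymerase Polk, had log2 changes with intervals of -0.76 to 0.42 (Btg2), -0.63 to 0.38 (Trp53inp1) and -0.59 to 0.51 (Polk).

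Of 4 p53 targets tied to cell death, 2 fell, 0 rose and 2 did not pass. Perp, a membrane protein of desmosomes that p53 induces in dying cells, had 11.07, 11.08 and 11.23 in stretched cells, against 11.62, 11.49 and 11.56 in unstretched cells. Each stretched array was lower than each unstretched one (log2 change -0.43, SE 0.09, limma adjusted p = 0.00801). Aen, a nuclease that degrades DNA in p53-dependent apoptosis, had 8.09, 8.07 and 8.34 in stretched cells, against 8.54, 8.67 and 8.62 in unstretched cells. It fell by 0.44 on the log2 scale (SE 0.10, limma adjusted p = 0.0110). The call was lost when stretched replicate 1 (adjusted p = 0.0537) or stretched replicate 2 (0.0505) was left out. It was also lost with the Aen probe sets averaged (log2 change -0.18, adjusted p = 0.288) and with the most variable one (-0.32, adjusted p = 0.254). Ei24, a protein of the endoplasmic reticulum, had 9.29, 9.44 and 9.49 in stretched cells, against 9.51, 9.58 and 9.55 in unstretched cells, a separation of less than 0.05 that did not pass (log2 change -0.14, SE 0.09, limma adjusted p = 0.333). Phlda3, a repressor of the survival kinase Akt, had a log2 change of -0.12 with an interval of -0.51 to 0.27.

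**Figure D3:**
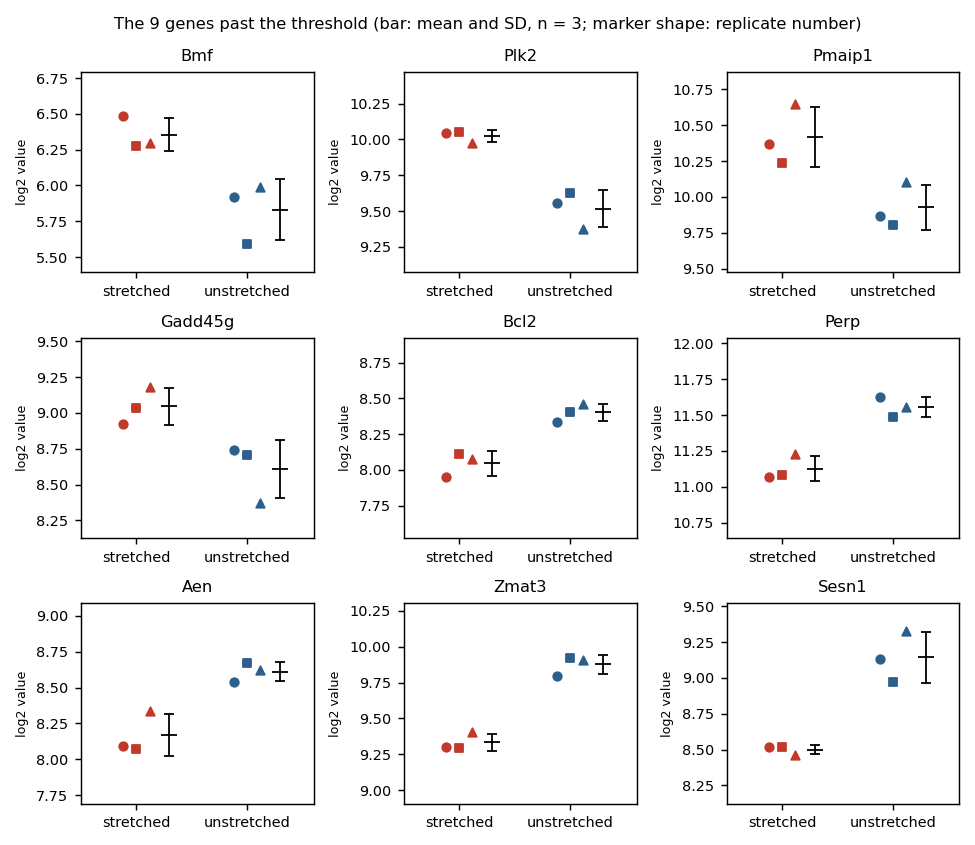
Log2 value per array (y axis, each panel spanning 1.4 units) of the 9 genes past the threshold, stretched arrays in red left of unstretched arrays in blue, with a marker shape for each replicate number and a bar for the mean and SD of 3 arrays. The groups are separate in every panel, and the gap between them is widest in Sesn1 and narrowest in Pmaip1.

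In the mitochondrial pathway, 2 of 7 BH3-only genes rose, 0 fell and 5 did not pass. Pmaip1, also called Noxa, which neutralizes Mcl1, had 10.37, 10.24 and 10.65 in stretched cells, against 9.87, 9.81 and 10.10 in unstretched cells. All stretched arrays were higher, by a log2 change of 0.49 (SE 0.12, limma adjusted p = 0.0204). It no longer passed when any of 4 arrays was left out, namely stretched replicate 1 (adjusted p = 0.0532), stretched replicate 3 (0.0783), unstretched replicate 1 (0.0635) and unstretched replicate 2 (0.0744). Bmf, a BH3-only protein that is held at the actomyosin cytoskeleton and linked to death after loss of attachment, had 6.49, 6.28 and 6.30 in stretched cells, against 5.92, 5.59 and 5.99 in unstretched cells. Its log2 change was 0.52 (SE 0.12, limma adjusted p = 0.0119), or 1.44-fold, and the call was lost without stretched replicate 1 (adjusted p = 0.0578) and with its probe sets averaged (log2 change 0.23, adjusted p = 0.0674).

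The remaining BH3-only genes showed smaller differences. Bid, which caspase 8 cleaves to pass the death receptor signal to mitochondria, had 9.87, 9.89 and 9.65 in stretched cells, against 9.95, 9.93 and 10.04 in unstretched cells (log2 change -0.17, SE 0.09, limma adjusted p = 0.274). Bbc3, also called Puma, the BH3-only gene most tied to p53, had 6.88, 7.06 and 7.73 in stretched cells, against 7.45, 7.26 and 7.81 in unstretched cells, with overlap between groups (log2 change -0.28, SE 0.20, limma adjusted p = 0.407). Bcl2l11, or Bim, had a log2 change of -0.06 (interval -0.36 to 0.24), Bad of 0.07 (-0.13 to 0.27) and Bik of -0.06 (-0.24 to 0.13). Bik was read by a dim probe set, at the 39.4th percentile of gene means, where RMA values compress changes and can be background.

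Of the 3 pro-survival genes, Bcl2 fell and the others did not pass. Bcl2 had 7.95, 8.11 and 8.08 in stretched cells, against 8.34, 8.40 and 8.46 in unstretched cells, with no overlap (log2 change -0.35, SE 0.09, limma adjusted p = 0.0195). It missed the threshold with stretched replicate 1 left out (adjusted p = 0.0912), and likewise stretched replicate 3 (0.0507), unstretched replicate 2 (0.0517) or both arrays numbered 3 (0.0907). Mcl1, a short-lived guard against Noxa and Bim, had 9.49, 9.50 and 9.64 in stretched cells, against 9.42, 9.17 and 9.29 in unstretched cells. The stretched arrays lay above the unstretched ones, though the closest pair differed by less than 0.1, and the gene did not pass (log2 change 0.25, SE 0.09, limma adjusted p = 0.109). When each gene was read by its most variable probe set, Mcl1 passed, with a log2 change of 0.50 (limma adjusted p = 0.0474). Bcl2l1, which encodes Bcl-xL, had 8.38, 8.27 and 8.53 in stretched cells, against 8.52, 8.35 and 8.54 in unstretched cells, with overlap between groups (log2 change -0.08, SE 0.10). The effector Bak1 had 6.47, 6.53 and 6.29 in stretched cells, against 6.58, 6.31 and 6.25 in unstretched cells, with a log2 change of 0.05 and an interval of -0.19 to 0.29.

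Neither the apoptosome genes nor the death receptor genes passed. Apaf1, the apoptosome scaffold, had 9.18, 9.26 and 9.60 in stretched cells, against 8.74, 8.79 and 9.30 in unstretched cells, with a log2 change of 0.41 (SE 0.15, limma adjusted p = 0.113). Within each group the third array was the highest. Without unstretched replicate 3 the gene passed (log2 change 0.58, limma adjusted p = 0.0135), as it did without both arrays numbered 3 (0.46, adjusted p = 0.0270). Casp9, the initiator caspase that Apaf1 activates, had a log2 change of -0.16 (interval -0.37 to 0.05), and Xiap, an inhibitor of caspases, of 0.10 (-0.11 to 0.30). Casp8, the initiator caspase of death receptors, had 0.19 (-0.02 to 0.40), Fas -0.19 (-0.54 to 0.16), and Eda2r, a p53-induced receptor for ectodysplasin A2, -0.34 (-1.01 to 0.32). Tnfrsf10b, the mouse TRAIL receptor, was dim, at the 26.4th percentile of gene means, with a log2 change of -0.18 (-0.40 to 0.04).

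Many of these genes also differed between arrays of the same group, being high on replicate 3 of both groups. Of the 35 genes, 16 (45.7%) had their highest stretched value on stretched replicate 3 and their highest unstretched value on unstretched replicate 3, against 12.3% of all genes tested. For replicate 1 the same count was 0, and for replicate 2 it was 1. This description was made after the values were seen and carries no test. The 16 genes took in both controllers of p53 (Mdm2 and Mdm4), 4 of 11 targets of arrest and repair (Ccng1, Btg2, Trp53inp1 and Polk), Phlda3, 3 of 4 death receptor genes (Fas, Eda2r and Casp8), 3 of 7 BH3-only genes (Bbc3, Pmaip1 and Bcl2l11), Bcl2l1, Apaf1 and Xiap. Plk2 and Bak1 were lowest on replicate 3 in both groups.

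For 4 of the 16 genes (Eda2r, Polk, Btg2 and Trp53inp1) the deviation in either group was larger than any change with stretch among the 35 genes. Eda2r on replicate 3 lay above the mean of replicates 1 and 2 by 1.12 log2 units in stretched cells and by 0.83 in unstretched cells, having 7.82, 7.61 and 8.84 in stretched cells, against 8.31, 8.02 and 8.99 in unstretched cells. Btg2 differed in the same way by 0.70 and 1.01, with 9.16, 8.87 and 9.71 in stretched cells and 9.04, 9.12 and 10.09 in unstretched cells. Polk differed by 0.73 in stretched and 0.89 in unstretched cells, Trp53inp1 by 0.80 and 0.68, Mdm2 by 0.58 and 0.67, and Bbc3 by 0.76 and 0.46. When all 18193 genes were ordered by the smaller of the pair of deviations, Eda2r stood at rank 5, Polk at 13, Btg2 at 15, Trp53inp1 at 16 and Mdm2 at 23, and 10 of the 35 genes (28.6%) were among the first 100. Across the 35 genes the deviation in stretched cells and that in unstretched cells correlated with Pearson's r of 0.763 (Spearman's rho 0.654), against 0.285 (0.224) across all genes. Each of these points rests on the same 6 arrays.

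**Figure D4:**
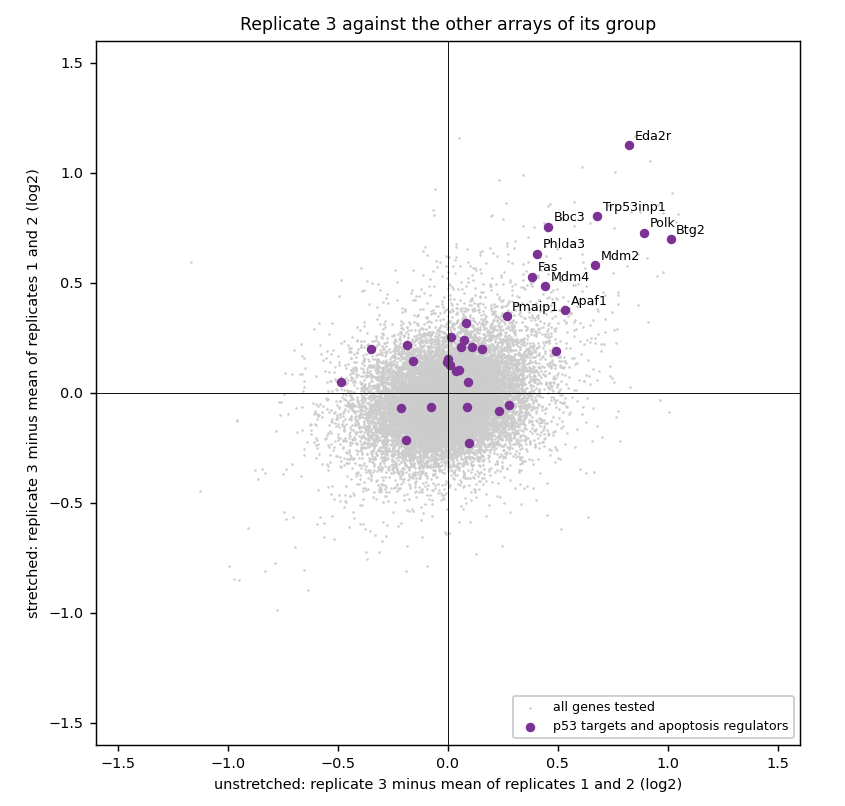
Log2 value on replicate 3 minus the mean of replicates 1 and 2, in stretched cells (y axis) and in unstretched cells (x axis), for all genes tested in grey and the p53 targets and apoptosis regulators in purple. The labelled genes, led by Eda2r, Btg2, Polk and Trp53inp1, lie in the upper right, where replicate 3 is high in both groups, and 1 gene lies outside the axes.

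Of the 16 genes highest on replicate 3 of both groups, Pmaip1 passed the threshold, and their SEs ran from 0.09 to 0.30 with a median of 0.17. Of the other 19, 8 passed, and their SEs ran from 0.08 to 0.13 with a median of 0.09. The 16 were picked for a difference between arrays of the same group, which enters the SE. Their wider SEs therefore follow in part from that choice. The share called among all genes split in this way was not counted. The wide intervals of Eda2r, Btg2, Polk, Trp53inp1 and Mdm2 came with a difference between arrays of the same group. With both arrays numbered 3 left out, an alternative added after the values were seen, 4 of the 35 genes rose and 4 fell, with 9.38% of all genes called. The excess of the 3' over the 5' control probe set of beta-actin, a sign of RNA quality in log2 units, was lowest of its group on replicate 3 too, at 1.25 against 1.35 and 1.30 on the other stretched arrays and 1.54 against 1.57 and 1.59 on the other unstretched arrays. The same excess for Gapdh was lowest on replicate 3 in stretched cells, at 0.0625 against 0.254 and 0.157, but not in unstretched cells, at 0.218 against 0.193 and 0.325. The part of either in the pattern was not tested.

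The array reads transcripts. The promoters of these genes were searched for the decamer that makes up a p53 half-site, which is a part of a full p53 site and not the whole. The motif reads the same on both strands and was sought by an exact match to its consensus. RefSeq promoter windows of build GRCm38.p6, from 250 bases before to 50 bases after a transcript start, were searched for 28 of the 35 genes. Windows on a chromosome that was set aside, and windows of another length, were not searched. The decamer was found in 9 of their 42 windows (21.4%), against 8.36% of all 32851 windows searched. It was found in 8 of the 28 genes (28.6%), against 9.55% of all 27025 genes with such a window. A gene counted if any of its windows held the decamer, which favours genes with more windows. These 28 genes had more windows per gene than all genes did. A match is a description of the letters and not a site of binding, and sites that lie further from the start fall outside these windows. The windows below were picked from the genes with a match, namely Mdm2 and Polk, which were high on replicate 3, and Aen, Sesn1 and Bmf, which differed with stretch. Each is written 5' to 3' on the strand of its gene, with the decamer in capitals. The Mdm2 window lies at chr10:117710709-117711008 on the minus strand, that of Polk at chr13:96519138-96519437 on the minus strand, at an alternative start, that of Aen at chr7:78895808-78896107 on the plus strand, that of Sesn1 at chr10:41887189-41887488 on the plus strand, also at an alternative start, and that of Bmf at chr2:118544538-118544837 on the minus strand, the most downstream of its 3 starts. The other windows of Polk, Sesn1 and Bmf hold no decamer. Counted from the transcript start, the first base of the decamer is at -186 in Mdm2, -231 in Polk, -121 in Aen, -173 in Sesn1 and -213 in Bmf. A second Aen window overlaps the one shown and holds the same decamer.
Mdm2: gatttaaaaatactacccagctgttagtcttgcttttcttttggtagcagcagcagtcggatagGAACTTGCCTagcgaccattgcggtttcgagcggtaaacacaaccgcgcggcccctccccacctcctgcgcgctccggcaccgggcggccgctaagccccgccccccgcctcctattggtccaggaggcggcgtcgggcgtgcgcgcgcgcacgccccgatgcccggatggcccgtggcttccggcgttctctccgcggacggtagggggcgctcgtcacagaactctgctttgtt
Polk: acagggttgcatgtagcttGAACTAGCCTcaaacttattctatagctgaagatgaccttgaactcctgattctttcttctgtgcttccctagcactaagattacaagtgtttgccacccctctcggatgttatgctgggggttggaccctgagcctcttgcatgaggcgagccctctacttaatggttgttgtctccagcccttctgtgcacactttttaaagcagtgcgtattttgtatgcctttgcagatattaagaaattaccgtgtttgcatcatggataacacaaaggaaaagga
Aen: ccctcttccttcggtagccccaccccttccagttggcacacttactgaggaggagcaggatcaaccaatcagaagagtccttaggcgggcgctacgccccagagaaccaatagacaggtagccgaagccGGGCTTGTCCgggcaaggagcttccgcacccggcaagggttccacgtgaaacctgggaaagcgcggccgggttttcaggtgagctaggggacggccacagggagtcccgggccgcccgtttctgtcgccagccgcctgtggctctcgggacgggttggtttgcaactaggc
Sesn1: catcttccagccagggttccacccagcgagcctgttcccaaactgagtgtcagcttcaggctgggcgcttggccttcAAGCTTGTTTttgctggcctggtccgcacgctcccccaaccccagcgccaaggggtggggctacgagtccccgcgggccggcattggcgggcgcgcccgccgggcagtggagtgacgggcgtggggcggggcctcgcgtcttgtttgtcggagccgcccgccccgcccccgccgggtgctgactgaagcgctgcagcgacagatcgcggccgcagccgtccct
Bmf: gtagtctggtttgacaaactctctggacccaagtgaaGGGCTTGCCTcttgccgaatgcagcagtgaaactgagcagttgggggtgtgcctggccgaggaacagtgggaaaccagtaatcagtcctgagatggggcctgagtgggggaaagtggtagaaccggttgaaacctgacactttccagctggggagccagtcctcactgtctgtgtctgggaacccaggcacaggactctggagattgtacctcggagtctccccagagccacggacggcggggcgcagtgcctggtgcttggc

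Other windows with the decamer belonged to Ccng1, Ei24 and Gadd45a, of which Ccng1 was highest on replicate 3 of both groups. No match was found in the windows of Eda2r, Btg2, Phlda3, Fas, Mdm4 and Bbc3, which were highest on replicate 3 of both groups. The same held for Casp8, Bcl2l11, Bcl2l1, Apaf1 and Xiap. Nor was a match found in the windows of Plk2, Gadd45g and Bcl2, which passed the threshold with stretch. This says only that these letters are absent from the 300 bases of each window. Zmat3, Perp and Pmaip1, which also passed, had no window among those searched.

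Other genes of the pathway were taken from lists made with earlier results of these data known. Of 31 other p53 targets and regulators, 14 (45.2%) were highest on replicate 3 of both groups. Among them, named here after their values were seen, Cdkn1a, the cyclin-dependent kinase inhibitor p21, had 10.36, 10.48 and 11.58 in stretched cells, against 10.48, 10.25 and 11.22 in unstretched cells, and stood at rank 4 of all genes in the order above. Its log2 change with stretch was 0.16 (SE 0.31, limma adjusted p = 0.797). Of 32 other genes of the apoptosis machinery, 2 (6.25%) were highest on replicate 3 of both groups, and of 15 DNA damage kinases and repair genes 4 (26.7%) were.

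With stretch, 2 of the 31 other p53 targets and regulators rose and 3 fell (16.1% called, median log2 change 0.04), a share near the 14.7% of all genes. Epha2, a receptor tyrosine kinase, rose by 0.64 (SE 0.10), while cyclin D1 (Ccnd1) had a log2 change of -0.96 (SE 0.20), the p53 ubiquitin ligase Rchy1 of -0.42 (SE 0.08) and the autophagy gene Dram1 of -0.39 (SE 0.08). Of 32 other apoptosis genes, 3 rose and 2 fell (15.6% called, median -0.02), again near that share. Cflar, the inhibitor of caspase 8 at death receptors, rose by 0.48 (SE 0.08), the inhibitor of apoptosis Birc6 by 0.65 (SE 0.11) and the endoplasmic reticulum caspase Casp12 by 0.34 (SE 0.09), while the mitochondrial channel Vdac2, which restrains Bak1, had a log2 change of -0.41 (SE 0.09). With all probe sets of a gene averaged, Birc6 had a log2 change of 0.09 (limma adjusted p = 0.641) and Cflar of 0.30 (adjusted p = 0.0589). Vdac2 and, on the list before, Dram1 did not pass without both arrays numbered 3 (limma adjusted p = 0.0673 and 0.0588). Casp12 no longer passed with stretched replicate 1 or 3 or unstretched replicate 1 or 3 left out (limma adjusted p = 0.0658 to 0.126).

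Of 15 DNA damage kinases and repair genes, 4 rose and 2 fell (40% called, median 0.03). Those that fell were the kinase Atr (log2 change -0.31, SE 0.09, limma adjusted p = 0.0429) and Nbn (-0.28, SE 0.08, adjusted p = 0.0453). Both calls lay near the threshold and were not followed under the alternative settings. Those that rose were Mdc1 (log2 change 0.69, SE 0.14), H2ax (0.56, SE 0.09), the replication checkpoint adaptor Clspn (0.55, SE 0.09) and Brca1 (0.46, SE 0.12), which lost its call when any of 4 arrays was left out, namely replicates 1 and 3 of the stretched and 1 and 2 of the unstretched group (limma adjusted p = 0.0866 to 0.109). Among 16 transcription factors and stress regulators that act on these genes besides p53, 3 rose and 3 fell (37.5% called, median -0.07). The stress factor Ddit3, also called Chop, which induces Bim, Puma and the TRAIL receptor, had 9.19, 9.07 and 8.81 in stretched cells, against 10.57, 10.52 and 10.38 in unstretched cells, a log2 change of -1.46 (SE 0.11, limma adjusted p = 3.07e-05). Egr1 had a log2 change of -1.47 (SE 0.13), Jun rose by 0.72 (SE 0.12) and Hif1a rose by 0.39 (SE 0.09), a call lost without stretched replicate 1 (limma adjusted p = 0.0610), without both arrays numbered 3 (0.0600) and with its probe sets averaged (log2 change 0.19, adjusted p = 0.156). Over these 4 lists together, 12 of 94 genes rose and 10 fell, 23.4% in all, against 14.7% of all genes tested.

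Genes with several probe sets gave a check on single readings. The 35 genes had 91 probe sets, 24 genes had more than 1, and in 13 of them another probe set had the opposite sign of log2 change. These were Aen, Plk2, Sesn1 and Xiap, described below, and Bad, Bcl2l1, Bcl2l11, Bid, Bik, Ccng1, Mcl1, Mdm2 and Rrm2b, of whose probe sets none passed when adjusted over all probe sets. Bcl2 had 5 probe sets, all with a negative log2 change between -0.75 and -0.20, and 3 of them passed when every probe set was tested (limma, adjusted over all probe sets). Sesn1 had 4: the brightest and the dimmest fell, with log2 changes of -0.64 and -0.42, while the pair of medium brightness had 0.17 and -0.00 (limma adjusted p = 0.562 and 0.991). The dimmest had a mean log2 value of 4.26, below the 4.49 of the Tnfrsf10b probe set used, so it can be background. The second Plk2 probe set, a dim one, had a log2 change of -0.36 (limma adjusted p = 0.0507). Beside the brightest Aen probe set, which fell, the others of this gene had log2 changes of -0.32, 0.16 and -0.11 (limma adjusted p = 0.296, 0.423 and 0.656). Xiap, which did not pass on its brightest probe set, had another that rose by 0.61 (limma adjusted p = 0.0377).

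**Figure D5:**
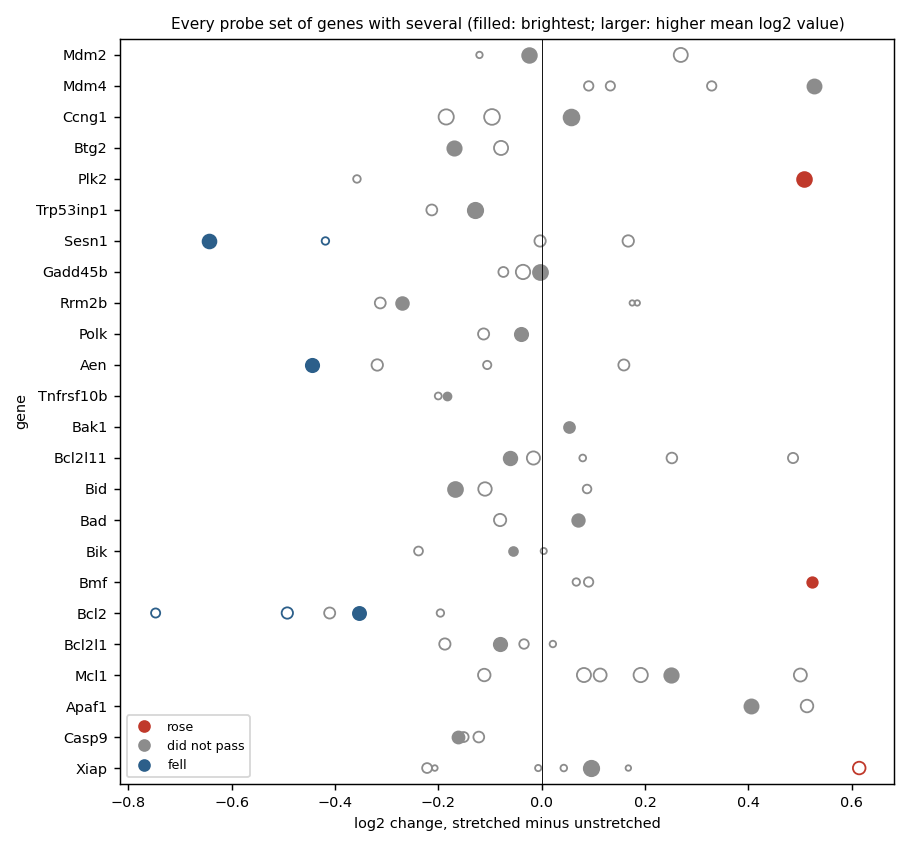
Log2 change, stretched minus unstretched (x axis), of every probe set of the 24 genes with more than 1, where filled circles are the brightest probe sets used in the text, larger circles have a higher mean log2 value, and colour marks calls adjusted over all probe sets. The 5 probe sets of Bcl2 all lie left of 0, whereas those of Sesn1, Plk2, Aen and Xiap spread to both sides.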

How the data were processed

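RNA of 6 arrays, 3 stretched and 3 unstretched, was read on Affymetrix mouse arrays. The authors deposited 1 log2 value for each probe set and array, obtained with RMA per the submitters' processing notes. RMA as a method corrects background, quantile normalizes and summarises probes, which compresses changes of dim probe sets. No version of it is named. Of 45101 probe sets, 64 controls were left out, and 34945 had a single gene symbol in the platform annotation.

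Stretched minus unstretched was fitted for 18193 genes with limma 3.58.1 (lmFit, eBayes) in R 4.3.3, without covariates or a filter on dim probe sets. The fit was two-sided, with Benjamini-Hochberg adjustment over all genes and n = 3 per group. SEs and 95% intervals are from this fit, and the number of arrays limits their precision. The steps were tested on simulated data with 200 changed genes and noise drawn independently for each array, without a pattern shared by replicate number. Of changes of 1 log2 unit, 89% passed the threshold, and of changes of 0.5 log2 units, 42% did. These shares belong to the simulated setting. In the real data 2681 genes were called, and the adjustment is less strict where more genes are called. The shares therefore do not give the sensitivity of the real fit. A gene that did not pass may still have changed.

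The genes, lists and alternatives were chosen with earlier results of these data known. Every gene of the list is accounted for. Genes past the threshold or without overlap between groups, the p53 controllers, Bak1 and the pro-survival genes were given by array, and up to 4 called genes of each other list were named by size of the moderated statistic. The DNA damage genes that fell, Atr and Nbn, were named besides. Alternatives were the replicate number as a block, omission of single arrays, rescaled arrays, removal of dim genes, a different choice of probe set and a changed variance prior.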

Additional observations from a re-analysis of the deposited data

How the results depend on the processing

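Of the 9 genes past the threshold, 1 (Zmat3) passed under all 17 alternatives, and all 9 kept their direction under each. Leaving out 1 array at a time gave 2 to 5 genes that rose and 3 to 5 that fell, and 7 to 15 and 6 to 11 genes of the other pathway lists. Over all genes these settings called 1661 to 2639, against 2681 with all arrays. Over all alternatives the median log2 change of the 35 genes was -0.14 to 0.01. Averaging all probe sets gave 2 that rose and 3 that fell, and 7 other pathway genes that rose, among 2505 calls over all genes. Without a variance prior, 0 rose and 1 fell, and 3 and 5 of the other lists, among 845 calls over all genes against 2681; at an unadjusted p under 0.05, limma with its prior counted 14 of the 35 and 27.8% of all genes. The cause was not tested. The count of genes highest on replicate 3 of both groups was 16 to 18 under other scalings, the dim filter and other probe sets.

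Over all genes, arrays with the same number in both groups had correlations of deviations of 0.018, 0.148 and 0.285 (0.384, 0.621 and 0.763 over the 35 genes alone). Not every one over all genes was above 0.1, so the numbers were not taken to pair them, and stretched replicate 1 correlated best with unstretched replicate 2 (0.058). With the replicate block, 6 genes rose and 6 fell, Mdm4 (adjusted p = 0.0150), Eda2r (0.0347) and Apaf1 (0.0108) being added, all 3 among the genes highest on replicate 3 of both groups, and 3102 of all genes were called. As a random block, 5 rose and 5 fell, and 3283 of all genes were called. Genes dim enough to lie near background, Tnfrsf10b and Bik here, are read with compressed changes.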
